A study of Mus musculus and Homo sapiens with 22 samples.

Results

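PROX1 binding was examined at the 7 genes that carry out the urea cycle: Cps1, Otc, Ass1, Asl, Arg1, Nags and Slc25a15. The genes were chosen by function and not by any measured value, although earlier results of these data were known when they were chosen. A peak was counted at a gene when its summit, the position of strongest signal, lay in the gene body or within 20 kb of it. By this rule 67 of 50159 peaks in mouse liver, 19 of 40531 in mouse embryonic fibroblasts (MEFs) and 6 of 14369 in the human line Hep3B belonged to the 7 genes.

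The binding was mapped by CUT&RUN, in which an antibody directs a nuclease to the chromatin that a protein occupies and the released DNA is sequenced. The series held 22 samples in 6 groups. Liver nuclei came from untreated wild-type C57BL/6J mice of 2 to 3 months and were profiled with an antibody against PROX1 itself (5 samples) or with IgG, a nonspecific antibody (5 samples). Primary MEFs of the C57BL/6N strain received rtTA and tetO-FLAG-mmProx1 by lentivirus, and 2 days of doxycycline at 2 µg/ml switched on the tagged mouse factor before profiling with a FLAG antibody (3 samples) or IgG (3 samples). Hep3B, an established human hepatocellular carcinoma line, was made stable for pLIX-Puro-hsPROX1 by puromycin selection and was treated with doxycycline at the same dose and for the same time (FLAG antibody 3 samples, IgG 3 samples). The liver profiles therefore show the endogenous factor in whole homogenised tissue, hepatocytes and other cells together, whereas both cultures show a virally supplied factor. Tissue, antibody and origin of the factor cannot be told apart between liver and either culture. Each of the 3 deposited lists pools the antibody samples of 1 group. There was thus no value per sample, the depth per sample is unknown, and no difference given here could be set against a spread between replicates. No RNA was measured in these 22 samples, so the labelled cell types could not be checked against marker genes here.

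The urea cycle turns toxic ammonia into urea and runs in full in hepatocytes, mainly those around the portal vein. Its first steps take place in mitochondria: NAGS makes the obligate activator of CPS1, CPS1 joins ammonia and bicarbonate to carbamoyl phosphate, OTC transfers it to ornithine, and the carrier SLC25A15 exchanges ornithine and citrulline across the inner membrane. In the cytosol ASS1 and ASL build and split argininosuccinate, and ARG1 hydrolyses arginine to urea and ornithine. PROX1 is a homeodomain transcription factor of hepatocytes that is also known as a partner of nuclear receptors, whose binding sites are built from the hexamer AGGTCA.

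The DNA at the strongest upstream peaks is shown first, because the 2 highest summits of the whole gene set lay there, at Ass1 and at Asl. Each line gives 160 bases centred on the summit and reads 5′ to 3′ in the sense of the gene. Capitals mark AGGTCA or its reverse complement TGACCT at Ass1 and Asl, and the C/EBP motif TTGCNNAA, read on the opposite strand, at the near upstream peak of Cps1. The far upstream peak of Cps1 held none of the 9 motifs searched and so has no capitals.
Ass1 upstream peak, liver, mm10 chr2:31464691-31464850 (plus strand): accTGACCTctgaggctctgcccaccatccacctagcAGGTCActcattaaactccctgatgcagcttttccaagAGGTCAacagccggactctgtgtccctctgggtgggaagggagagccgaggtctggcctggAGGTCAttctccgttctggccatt
Asl upstream peak, liver, mm10 chr5:130043801-130043960 (minus strand): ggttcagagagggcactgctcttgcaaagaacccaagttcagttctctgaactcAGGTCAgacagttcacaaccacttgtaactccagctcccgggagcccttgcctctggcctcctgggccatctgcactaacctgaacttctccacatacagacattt
Cps1 far upstream peak, liver, mm10 chr1:67103556-67103715 (plus strand): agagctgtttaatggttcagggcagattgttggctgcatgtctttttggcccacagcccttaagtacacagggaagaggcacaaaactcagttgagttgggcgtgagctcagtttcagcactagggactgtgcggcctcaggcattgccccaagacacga
Cps1 near upstream peak, liver, mm10 chr1:67116816-67116975 (plus strand): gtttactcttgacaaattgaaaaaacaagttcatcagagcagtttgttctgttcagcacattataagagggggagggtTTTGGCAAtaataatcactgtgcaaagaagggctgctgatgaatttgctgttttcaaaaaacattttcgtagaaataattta

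Promoter peaks are shown next, because all 7 genes had such a peak in liver when summits within 1 kb of any annotated start were counted. The liver windows and the Hep3B window are centred on the summit, except that the Arg1 window ends at the base before the gene start, as does the Ass1 window from MEFs. Capitals mark GGGCGG or CCGCCC, the motif of SP1 and KLF factors, at Arg1 and in Hep3B. The Otc window held no motif of the 9. The Ass1 window from MEFs held none in the bases shown, but the 300 bp around its summit, which reach into the gene, held GGGCGG.
Otc promoter peak, liver, mm10 chrX:10252144-10252303 (plus strand): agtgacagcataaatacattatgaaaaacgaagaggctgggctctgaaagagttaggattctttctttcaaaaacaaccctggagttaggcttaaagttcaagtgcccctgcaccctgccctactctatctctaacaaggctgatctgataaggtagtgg
Arg1 promoter peak, liver, mm10 chr10:24927485-24927644 (minus strand): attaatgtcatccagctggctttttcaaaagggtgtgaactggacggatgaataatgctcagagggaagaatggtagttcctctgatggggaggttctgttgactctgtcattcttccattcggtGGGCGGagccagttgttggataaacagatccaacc
Ass1 promoter peak, MEFs, mm10 chr2:31470047-31470206 (plus strand): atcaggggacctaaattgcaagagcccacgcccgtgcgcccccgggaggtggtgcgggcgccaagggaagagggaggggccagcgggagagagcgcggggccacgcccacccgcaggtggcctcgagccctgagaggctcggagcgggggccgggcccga
ASS1 promoter peak, Hep3B, hg38 chr9:130444710-130444869 (plus strand): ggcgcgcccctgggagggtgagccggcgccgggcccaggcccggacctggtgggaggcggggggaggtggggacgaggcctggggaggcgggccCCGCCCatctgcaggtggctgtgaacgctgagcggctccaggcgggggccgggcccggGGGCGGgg

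All 7 genes had a PROX1 peak in liver, and each had at least 5. Over the protein-coding genes of the mouse annotation, 57.5% had any liver peak in the same window and 22.7% had 5 or more, a threshold chosen after the values were seen. The 7 genes held between 5 and 13 liver peaks with a median of 10, against a median of 1 over all protein-coding genes. All 7 also had a promoter peak, defined by a summit within 1 kb of any annotated transcription start site (TSS) of the gene, against 28.3% of protein-coding genes. In a list of 14369 top peaks, the size of the Hep3B list, 22 liver peaks remained at the 7 genes and each gene still had at least 1, compared with 28.3% of all protein-coding genes.

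In MEFs 5 of the 7 genes had a peak, against 75.6% of protein-coding genes, and 4 had a promoter peak, against 56.5%. Otc and Arg1 had none. The nearest MEF summit to Otc lay 35380 bp from the gene and the nearest to Arg1 lay 44957 bp away. In Hep3B 5 of the 7 genes had a peak as well, against 62.6% of human protein-coding genes, and 3 had a promoter peak, against 45.2%. OTC and ARG1 were again without a peak, the nearest summits being 25001 bp and 44246 bp away. The counts thus lay above the background in liver, whereas in both cultures they lay close to it and came from 7 genes only.

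Because longer genes have larger windows, the counts were also expressed per 10 kb of window. In liver the median of the 7 genes was 1.44 peaks per 10 kb, compared with 0.153 over all protein-coding genes. The lowest density was 0.460 at Otc and the highest was 2.06 at Slc25a15, and these values stood at the 71.3 and 97.9 percentiles of all genes. In MEFs the median was 0.317 against 0.265, and in Hep3B it was 0.104 against 0.104. The genes therefore ranked high in density in liver, with a median percentile of 93.7, and in the middle of the range in MEFs (54.6) and Hep3B (49.9).

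**Figure D1:**
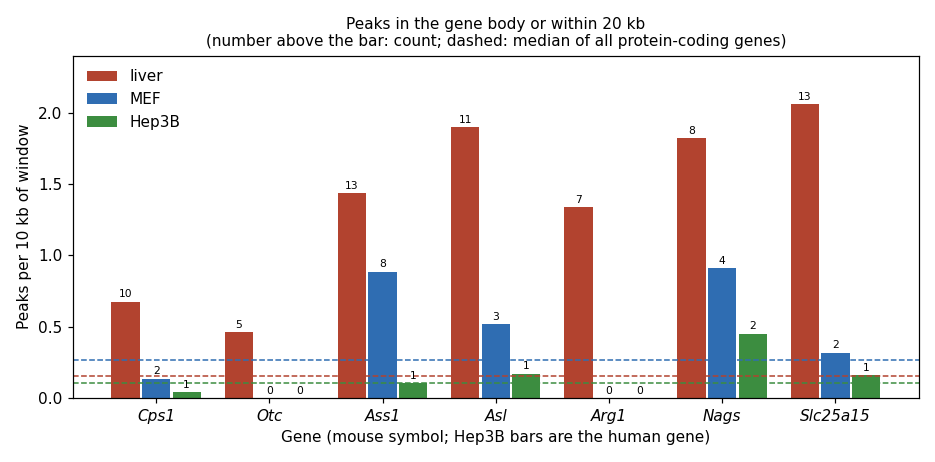
Peaks per 10 kb of window (vertical axis) at each gene in the liver, MEF and Hep3B lists, with the number of peaks above each bar and the median of all protein-coding genes as a dashed line. All 7 liver bars stand above the liver median of 0.153, while Otc and Arg1 have no peak in either culture.

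Peak strength was read from the −log10 p that the authors' peak caller gave to each summit. These values were not normalised between lists, so they rank peaks only within a list. The 67 liver peaks ran from 7.0 to 25.4 with a median of 12.7, against 12.2 for the whole list. Their median rank lay 44.7% down the list, 7 peaks (10.4%) were among the strongest 10%, and 14 (20.9%) were in the weakest 25%. In liver the genes thus differed from the median of all protein-coding genes in the number of their peaks. The median strength of those peaks differed little from that of the list. The median summit was 5.67 in MEFs and 6.10 in Hep3B, with list medians of 5.96 and 6.44. Ranked by area under the significance curve, the median peak lay 37.6% down the liver list, 49.3% down the MEF list and 44.7% down the Hep3B list.

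**Figure D2:**
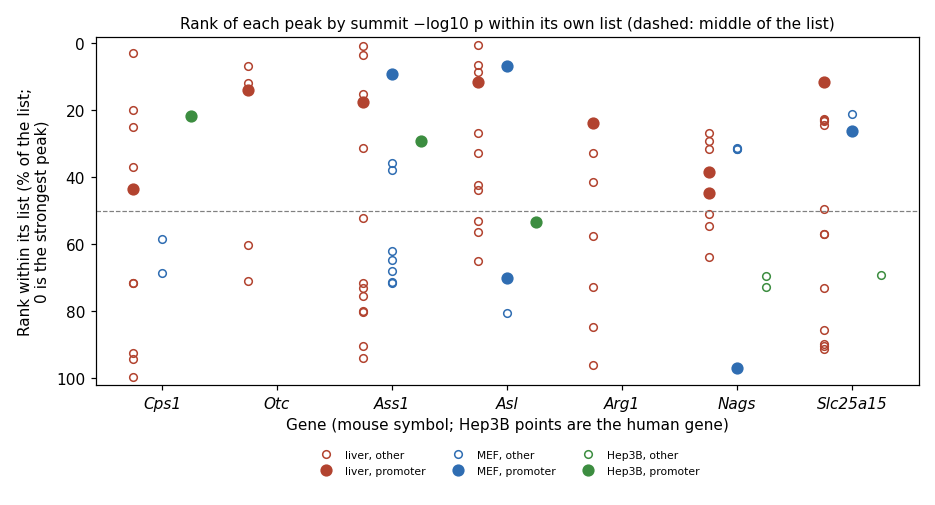
Rank of each peak within its own list by summit −log10 p (vertical axis, 0% is the strongest peak), by gene and list, with filled points for promoter peaks. Liver peaks spread over the whole list, from 0.361% down at Asl to 99.7% down at Cps1.

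Cps1 encodes the rate-limiting mitochondrial enzyme and spans 108 kb (mm10 chr1:67123026-67231259, plus strand). Its 10 liver peaks formed a cluster around the gene start, 4 upstream and 6 inside. The strongest lay at −19.39 kb, that is upstream of the gene start in the direction of transcription, with a −log10 p of 21.4 and rank 1409 of the list. Nearer the gene, the peak at −6.13 kb reached 15.9 and was 1988 bp wide, and the peak at −9.15 kb reached 15.1. The promoter summit lay 2 bp from the TSS with a value of 12.8. A further 5 peaks lay in intron 1, the strongest of them with 13.5 at +2.71 kb and the last with 7.0 at +10.91 kb, and the remaining 97.3 kb of the gene held none. In MEFs the gene had 2 intronic peaks and no promoter peak. Their values were 5.29 at +21.13 kb in intron 4 and 5.67 at +58.36 kb in intron 21. These ranked 68.6% and 58.3% down the MEF list. The MEF peaks lay in the part of the gene that was empty in liver, and no liver peak of Cps1 overlapped a MEF peak.

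Otc, the gene of ornithine transcarbamylase, lies on the X chromosome (mm10 chrX:10252305-10321024, plus strand) and had 5 peaks, the fewest of the 7 genes. The summits were nevertheless strong, with a median of 17.1. The highest reached 19.2 at +7.43 kb in intron 1, followed by 17.6 at −12.83 kb and by 17.1 at the promoter, 81 bp upstream of the TSS. The weaker peaks stood at 11.3 (+1.32 kb) and 10.4 (+3.95 kb), also in intron 1. The last 61.3 kb of the gene held no liver peak.

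Ass1 catalyses the step that brings the second nitrogen, from aspartate, into the cycle (mm10 chr2:31470207-31520672, plus strand). With 13 peaks it shared the highest count. Its strongest peak, at −5.44 kb, had a −log10 p of 24.2 and rank 375, within the first 0.748% of the list, and was 2474 bp wide. It is the window shown above that holds AGGTCA or its complement at 4 places, starting at bases 4, 38, 76 and 137. A second wide peak of 2829 bp at −9.70 kb reached 20.9, and a narrower peak of 533 bp at −7.98 kb reached 16.9. The promoter peak (16.4) had its summit 726 bp upstream of the TSS. The 4 peaks farthest upstream lay inside the neighbouring gene Hmcn2, and the 2 downstream peaks had the Fubp3 TSS as the nearest protein-coding TSS, although noncoding Ass1 transcripts (retained introns) start nearer to them, 3294 and 11902 bp away.

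Ass1 was also the gene with most MEF peaks, 8 in all, at the 89.2 percentile of density. The strongest was at the promoter, 1 bp from the TSS, with 8.20 and a rank 9.16% down the list. The other 7 ran from 5.20 to 6.55 and reached to +42.84 kb, past the last liver peak inside the gene at +7.44 kb. In both mouse lists the promoter was occupied, and the peaks there overlapped, with the MEF summit at the TSS and the liver summit upstream of it. In Hep3B the single ASS1 peak was a promoter peak, 171 bp upstream of the TSS, with 7.20.

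Asl follows Ass1 in the cycle and is a short gene (mm10 chr5:130011258-130029247, minus strand) among close neighbours. It held the strongest liver peak of the set, at −14.63 kb with a −log10 p of 25.4 and rank 181, within the first 0.361% of the list. That peak lay inside Crcp, as did the 5 others upstream, among them peaks of 19.3 at −2.52 kb and 18.6 at −4.92 kb. Of the 11 peaks, only 3 had the TSS of Asl as the nearest protein-coding TSS, 6 were nearest to Crcp and 2 to Gusb. The assignment of the upstream peaks to Asl therefore rests on distance alone. The peak that met the promoter rule (17.7) lay in intron 3, 378 bp from an internal protein-coding TSS, and it was the only liver promoter call of the set lost when the outermost start of each gene alone was used.

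In MEFs the strongest Asl peak lay at +4.85 kb, 12 bp from an internal protein-coding TSS, with 8.51 and a rank 6.70% down the list, the highest MEF summit of the set. It overlapped the liver promoter peak. A weaker MEF peak (5.25) stood 52 bp upstream of the outer start of Asl and 3 bp from the TSS of Crcp, where liver had no peak. The remaining MEF peak (4.88) stood 8 bp from the TSS of Gusb. In Hep3B the single ASL peak lay 2 bp from a TSS of ASL, with 6.34.

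Arg1, the arginase that releases urea, is a compact gene (mm10 chr10:24915221-24927484, minus strand) with 7 liver peaks. The strongest was the promoter peak, 79 bp upstream of the TSS, at 15.3 and rank 11918. Intron 1 held 3 peaks with 13 at +1.96 kb, 11.5 at +2.98 kb and 14 at +4.25 kb. The other 3 were weaker, at 10.3, 9.38 and 8.11, and lay at −1.01, −15.58 and +13.72 kb. No peak of Arg1 was among the strongest 10% of the list. The human model of ARG1 spans 113.5 kb, and it and its 20 kb flanks were without a Hep3B peak.

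Nags is the shortest gene of the set at 3.96 kb (mm10 chr11:102145513-102149477, plus strand). Its 8 liver peaks were of even strength, from 11.0 to 14.9. A pair met the promoter rule, 13.3 at −0.37 kb and 12.7 at +0.71 kb, and a peak of 14.5 lay at −2.31 kb. A peak in coding exon 4 reached 11.7. The 3 peaks downstream belonged to the neighbourhood of other genes, with 12.1 at the Tmem101 promoter, 46 bp from its TSS, and 14.2 and 14.9 inside Lsm12. In MEFs the promoter peak was among the weakest of its list (4.12, 97.0% down), while the Tmem101 promoter peak (6.75) and the upstream peaks at −4.82 kb (6.74) and −6.95 kb (6.76) ranked higher. In Hep3B NAGS itself had no promoter peak, and its 2 peaks lay 17 bp from the TSS of TMEM101 (5.84) and inside PYY (5.74).

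Slc25a15, the mitochondrial ornithine carrier (mm10 chr8:22375551-22398597, minus strand), had the densest binding of the set, with 13 liver peaks in a window of 63.0 kb. The strongest was the promoter peak, 775 bp upstream of the TSS, at 17.7, with a neighbour of 15.4 at −2.17 kb. A series of 10 peaks ran through introns 1 to 4, from +2.08 to +17.02 kb. They ranged from 8.76 to 15.5. The remaining liver peak (11.6) stood 47 bp from the TSS of Mrps31, where MEFs also had a peak (7.29). MEFs had a promoter peak at Slc25a15 as well, 14 bp from a TSS, with 7.02. In Hep3B the only SLC25A15 peak, 5.85 at −18.00 kb, lay 217 bp from the TSS of MRPS31.

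**Figure D3:**
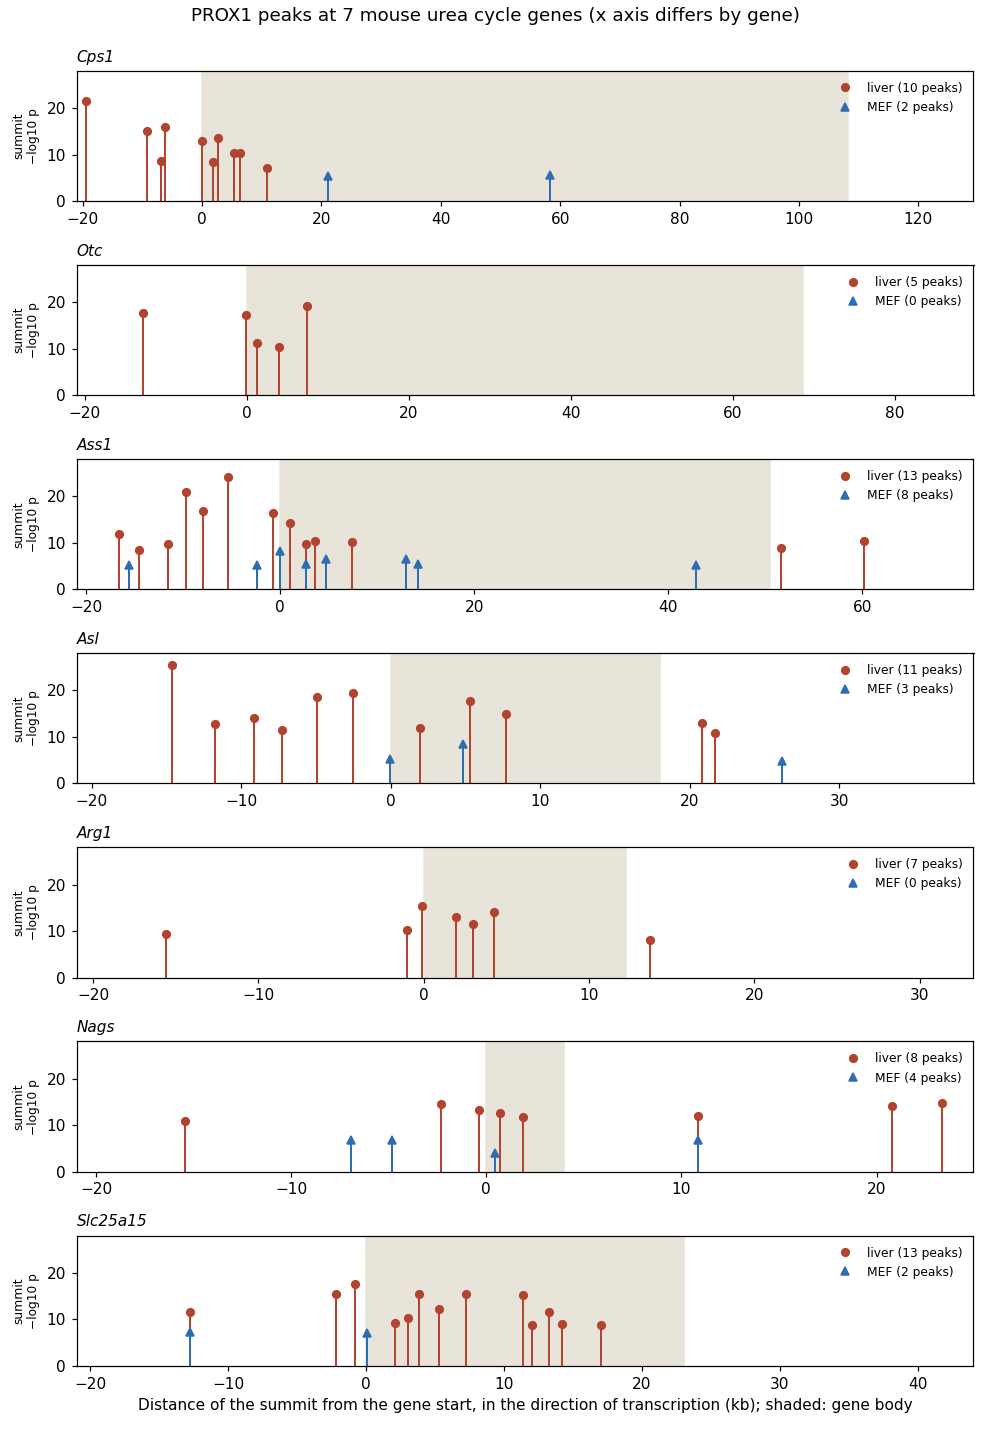
Summit −log10 p (vertical axis) of liver peaks (red circles) and MEF peaks (blue triangles) against the distance from the gene start in kb along the direction of transcription, with the gene body shaded. Liver peaks gather upstream and in the first part of Cps1, Otc and Ass1, while Slc25a15 carries them through most of its introns.

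In liver 43 of the 67 summits lay within 10 kb of a gene start, 28 were upstream and 31 inside a gene, of which 29 were intronic and 17 were in intron 1. In MEFs 10 of the 19 summits lay within 10 kb of a gene start, 7 were upstream and 10 inside a gene, of which 8 were intronic and 1 was in intron 1. For the 3 genes of at least 50 kb, Cps1, Otc and Ass1, all 13 liver summits inside the gene fell in its first 25%, compared with 36.2% of summits in the 5007 protein-coding genes of that length. In MEFs 3 of the 7 summits inside these genes did so (42.9%, against 36.7%). This comparison was chosen after the positions had been seen, and the summits come from only 3 genes.

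Among the peaks at the 7 genes, those in Hep3B lay most often closer to another gene, but there were only 6 of them. The matching share over all peaks of each list is not given here. Only 2 of the 6 Hep3B peaks, those of ASS1 and ASL, had the member as the nearest protein-coding gene. The CPS1 promoter call, at −0.91 kb with 7.58, was 1 bp from the TSS of LANCL1, the divergent neighbour. In liver 53 of 67 peaks and in MEFs 15 of 19 were nearest to the member itself. Counted on these peaks alone, a setting chosen after seeing the data, the genes with a peak were 7 for liver, 5 for MEFs and 2 for Hep3B, where the shares of all protein-coding genes were 42.9%, 63.6% and 44.1%.

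The liver and MEF lists use the same genome build, so positions could be compared directly. Of the 67 liver peaks, 10 (14.9%) overlapped a MEF peak by at least 1 bp, against 18.9% of all liver peaks. In the other direction 8 of 19 MEF peaks (42.1%) overlapped a liver peak, against 21.4% of all MEF peaks. Of the 8 liver peaks at promoters of the 7 genes, 5 overlapped a MEF peak. The other shared liver peaks were 3 of Ass1, at −16.60, +1.02 and +2.60 kb, and those at the Tmem101 and Mrps31 promoters. With promoters of any protein-coding gene counted, a split chosen after seeing the data, 7 of 11 promoter peaks (63.6%) and 3 of 56 others (5.36%) were shared, against 60.3% and 10.4% in the whole liver list. The higher share at promoters was thus a feature of the liver list as a whole. By the same split, 7 of 9 MEF promoter peaks (77.8%) and 1 of 10 others (10%) overlapped a liver peak. The shares over the whole MEF list were 34.5% and 14.5%. No liver peak of Cps1 was shared. At Otc and Arg1 none could be, because neither gene had a MEF peak.

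Sequence within 300 bp centred on each summit was searched on both strands for 9 motifs, and a match describes letters and not a bound site. The AGGTCA hexamer was present at 25 of the 67 liver peaks (37.3%), against 31.9% of all liver peaks. By gene it was present at 7 of 13 peaks of Ass1, 5 of 13 of Slc25a15, 4 of 8 of Nags, 3 of 11 of Asl, 2 of 10 of Cps1, 2 of 7 of Arg1 and 2 of 5 of Otc. Its extended form TCAAGGTCA, which contains the hexamer and is known from receptors that bind as monomers, was present at 4 liver peaks (5.97% against 1.5%), 2 of them at Nags and 1 each at Otc and Ass1. In MEFs the hexamer was present at 2 of 19 peaks (10.5% against 16.4%) and in Hep3B at 0 of 6 (against 14%).

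The remaining motifs belong to hepatocyte factors (C/EBP, FOXA, ONECUT and HNF1) and to the widely expressed NF-Y and SP1/KLF factors. The C/EBP motif TTGCNNAA was present at 14 liver peaks (20.9% against 21.4%), of which 7 were at Slc25a15 and 4 at Asl. TGTTTAC, the FOXA core, was present at 6 (8.96% against 8.16%), and ATCGAT, the ONECUT core, at 3 (4.48% against 2.49%). GTTAAT, from the HNF1 site, was present at 4, of which 2 were at Cps1 and 2 at Slc25a15 (5.97% against 12.2%). CCAAT, the NF-Y motif, was present at 23 (34.3% against 36.5%). GGGCGG was present at 8 liver peaks (11.9% against 11.0%), at 3 MEF peaks (15.8% against 28.2%) and at 5 of the 6 Hep3B peaks (83.3% against 53.6%). Hep3B peaks were also the richest in G and C, with a median of 63.3% at these genes and 61.3% over the list, compared with 47.3% and 46.7% in liver.

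**Figure D4:**
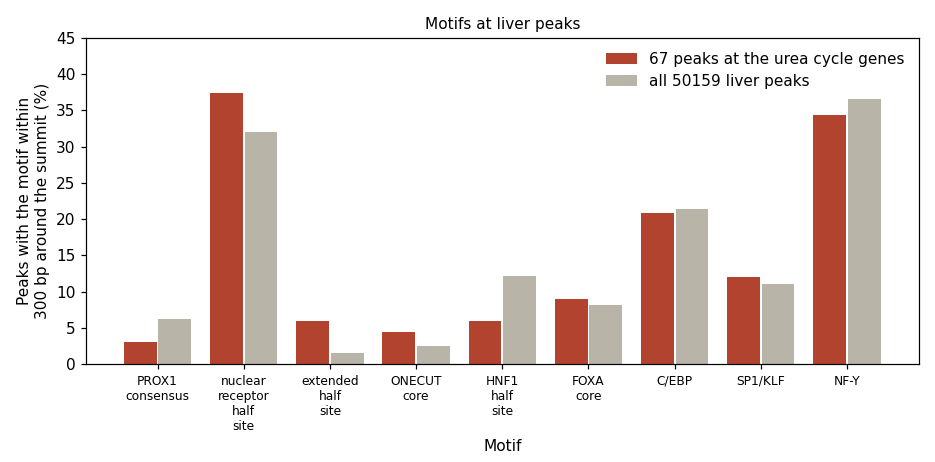
Share of peaks (vertical axis, %) with each of the 9 motifs within 300 bp around the summit, for the 67 liver peaks at the urea cycle genes and for all 50159 liver peaks. The shares are close for most motifs, and the AGGTCA hexamer, labelled as the nuclear receptor motif, stands at 37.3% against 31.9%.

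The PROX1 consensus itself is a site of 12 bases. With up to 2 mismatches it was present at 2 of 67 liver peaks (2.99%), against 6.17% of the liver list, at 2 of 19 MEF peaks (10.5% against 4.97%) and at none of the 6 Hep3B peaks (against 5.01%). With up to 1 mismatch no peak of the set had it, and the shares of the whole lists were only 0.355% in liver, 0.318% in MEFs and 0.334% in Hep3B. Each of the 4 matches had 2 mismatches. The 3 at Ass1 and Nags are shown with 14 bases on each side, and capitals mark the 12 matched bases. The fourth lay in intron 2 of Slc25a15.
Ass1 downstream peak, liver, mm10 chr2:31521786-31521825 (plus strand): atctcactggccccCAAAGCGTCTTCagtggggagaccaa
Ass1 upstream peak, MEFs, mm10 chr2:31467909-31467948 (plus strand): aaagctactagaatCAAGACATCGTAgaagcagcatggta
Nags upstream peak, MEFs, mm10 chr11:102140747-102140786 (plus strand): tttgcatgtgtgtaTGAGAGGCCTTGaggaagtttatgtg

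None of these 4 sites lay at a promoter or at a strongest peak of its gene. The distance from the centre of the match to the summit was 21 bp at the Ass1 liver peak (8.83 at +51.58 kb), 127 bp at the Slc25a15 peak (15.5 at +3.86 kb), 76 bp at the Ass1 peak in MEFs (5.20 at −2.36 kb) and 72 bp at the Nags peak in MEFs (6.74 at −4.82 kb).

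Other genes of nitrogen metabolism gave context in liver. Of 12 genes that supply nitrogen to the cycle or its substrates, all 12 had a liver peak and 11 a promoter peak (against 57.5% and 28.3% of protein-coding genes), with a median of 14 peaks and 1.89 per 10 kb. The strongest promoter peaks were at Gpt, alanine aminotransferase (30.7), Got1, cytosolic aspartate aminotransferase (22.3), and Slc7a2, a transporter of cationic amino acids (21). Of 3 genes of glutamine synthesis and ammonium or glutamate transport around the central vein, 2 had a peak and only Glul, glutamine synthetase, had a promoter peak (15.4). Rhbg, an ammonium transporter, had no peak. Of 10 genes for other fates of arginine and ornithine, 9 had a peak and 5 a promoter peak, with a median of 3 peaks. The strongest there, Sat1 (11.0), Aldh4a1 (10.9) and Prodh (10.8), were weaker than the weakest liver promoter peak of a urea cycle gene (12.7 at Nags), and Slc25a2 had no peak. Among the supply genes, the promoter peaks of Glud1 (7.49), Gls2 (9.72) and Got2 (11.8) also lay below 12.7, and Oat had no promoter peak. The remaining supply genes lay above that value.

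In MEFs all 25 of these companion genes had a peak and 19 a promoter peak, against 75.6% and 56.5% of protein-coding genes. In Hep3B, where Car5a had no identical human symbol, 17 of 24 had a peak and 14 a promoter peak, against 62.6% and 45.2%. The nitrogen supply genes had a median of 14 peaks in liver, 4 in MEFs and 1 in the Hep3B list, next to 10, 2 and 1 for the urea cycle genes. The median count for the other fates of arginine and ornithine was 3 in liver and 3 in MEFs.

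Across 15713 symbols present in both annotations, the genes whose density percentiles in the 3 lists were nearest to the medians of the urea cycle genes were Acadm, Larp1, Nr2c1, Maco1 and Cgnl1. Acadm, the medium-chain acyl-CoA dehydrogenase of mitochondrial fat oxidation, was closest, with density percentiles of 95.3 (liver), 54.9 (MEFs) and 48.7 (Hep3B) and a Euclidean distance of 1.99 percentile points. The other 4 lay at distances of 2.31 to 3.08. The likeness rests on 3 values per gene, and the median profile was not the profile of every member: Otc and Arg1 had no peak in either culture, whereas Ass1 and Nags stood at the 89.2 and 89.9 percentiles in MEFs.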

How the data were processed

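CUT&RUN was done on 22 samples in 6 groups, taken from the sample labels. The authors trimmed reads with Trim Galore 0.6.6, aligned them with Bowtie2 2.4.2 to mm10 or hg38 within nf-core/cutandrun, and called peaks over the pooled replicates of a group with Genrich 0.6.1 at a lenient q-value limit (versions from the submitters' processing notes). The study describes the sites as found in comparison with IgG, but the Genrich command in its methods names no control, so how IgG entered the lists could not be settled. Lists for IgG or for single replicates were not analysed here, so depth per sample is unknown and no test was made. Shares and medians are descriptions of 3 pooled lists.

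Each of the 3 deposited lists gives the signal of a peak, which is the area under the significance curve, and the deposited −log10 p and −log10 q of its summit as the authors' caller wrote them. The deposited score, capped by the caller, was not used. None of these values was normalised between lists by the authors, and peaks with an area under 500 are not in the liver list while the other lists start lower, so the liver list is the stricter in area.

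The 7 genes, the 25 companion genes, the motifs and the rules were chosen with earlier results of these data known. A summit (peak start plus the deposited offset) was assigned to a gene in its body or within 20 kb, and to a promoter within 1 kb of any TSS of the gene, with GENCODE M21 (mouse) and GENCODE 44 (human). The same was counted for all 21938 mouse and 20033 human protein-coding genes as background. A total of 14361 Hep3B peaks on assembled chromosomes entered the motif search. Ranks followed the summit −log10 p. Named were all 7 genes, the 3 strongest peaks of each list, the promoter peaks, up to 3 companion genes per group with the strongest liver promoter peak, those without a liver peak, and the 5 genes nearest in percentiles of density. Other peaks of the 7 genes, and the companion genes Glud1, Gls2, Got2 and Oat, were named after their values had been seen. The motifs were written from general knowledge and are not the matrices of the authors, and sequences came from the reference genomes. Scripts were tested on simulated data and used Python 3.11.15, pandas 2.3.3 and numpy 2.4.6. Alternatives were other windows, promoter definitions, q-value limits, list sizes, area floors, overlap rules, mismatch limits and ranking by area.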

Additional observations from a re-analysis of the deposited data

How the results depend on the processing

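For 15 values, 80 alternatives were computed, of which 61 stayed within 1.5 times the value given and 19 moved further. With the gene body alone the peaks at the 7 genes were 31 in liver, 10 in MEFs and 1 in Hep3B, where 1 gene kept a peak. A window of 50 kb gave 30 peaks in MEFs and 10 in Hep3B. With that window all 7 genes, Otc and Arg1 among them, had a peak in both cultures. The share of all protein-coding genes at 50 kb is not given here. With 14369 top peaks from each list the 7 genes held 22 peaks in liver and 7 in MEFs, and 3 liver peaks overlapped a MEF peak, as many as with summits required within 100 bp (3). An area floor of 500 in every list left 7 peaks in MEFs and, in Hep3B, 3 peaks at 3 genes. Summits nearest to the TSS of the gene itself, a setting chosen after seeing the data, numbered 2 in Hep3B, at 2 genes. The PROX1 consensus was present at 0 liver peaks with up to 1 mismatch, at 30 (44.8%, against 46.5% of the list) with up to 3, and at 1 within 100 bp centred on the summit, and AGGTCA at 15 within 100 bp (22.4% against 16.3%). All 7 genes had a liver peak in each alternative. A liver promoter peak was kept by 5 of the 7 genes with summits within 500 bp, by 5 with the 14369 top peaks and by 6 with the outermost start alone. Under the other settings all 7 kept it. The shares of all protein-coding genes with a promoter peak under these settings are not given here. No paired analysis was possible because each list pools the replicates of its group, and no replicate could be left out for the same reason. The pooling also means that the depth behind a missing peak is unknown: a gene without a peak had none that passed the authors' threshold.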
